A study of Mus musculus with 8 samples.

Results

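Foxk1 peaks were described here in a stretch of 150 kb on mouse chromosome 19, from 5750000 to 5900000 on the mm9 assembly, which holds the genes of the long noncoding RNAs Malat1 and Neat1. Peaks were chosen by the position of their summits, which had to lie in these bounds, and 23 of the 28933 peaks in the list did. The region itself was picked for how many peaks it holds, and the values below come from the same list, so they are a description and carry no test.

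The study mapped Foxk1 by chromatin immunoprecipitation followed by sequencing in MEFs, fibroblasts cultured from mouse embryos, which were grown in DMEM and given no treatment. It held 3 libraries made with an antibody against Foxk1, 3 made with control IgG, and 2 of input, which is sonicated chromatin with no antibody step. The labels give no genotype, strain, age or passage, and do not say whether libraries came from separate cultures. The values are a single list that its track line names as Foxk1 against input, with 1 signal value and 1 q-value per peak, both the authors' own. No peak therefore has a replicate error, the depth of the libraries is unknown, and binding cannot be told apart from signal that IgG would give as well, since no value for IgG was analysed here.

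Foxk1 is a forkhead transcription factor, which binds DNA through a winged-helix domain and is known in fibroblasts and muscle as a regulator of autophagy and glycolysis genes. Malat1 is an abundant RNA that stays in the nucleus, where it gathers at nuclear speckles, bodies rich in splicing factors. Neat1 is the RNA scaffold on which paraspeckles, another kind of nuclear body, are built. Mascrna, a small tRNA-like RNA, is cut from the end of the Malat1 transcript. Both long RNAs are known to be made at high levels in many cell types.

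In RefSeq's gene table for GRCm38.p6, a later assembly than that of the peaks, Malat1 spans 6983 bp and Neat1 20773 bp. They are next to each other there, with Mascrna the single entry listed between them when genes are sorted by their lowest coordinate. This order does not place Mascrna in the interval between the genes. Among the genes on the Malat1 side is Ltbp3, which encodes a protein that binds latent TGF-beta. After Neat1 come Frmd8, which encodes a FERM-domain protein, and Slc25a45, which encodes a member of the mitochondrial carrier family. The table was used for names, lengths and this order. Its coordinates were not set against the mm9 summits, so no summit below is placed in a gene, in a promoter or between genes.

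The promoter of Malat1 is shown because it is the one stretch of DNA of the members for which a sequence was at hand, and forkhead proteins are known to prefer a core that reads GTAAACA. It covers 250 bases before and 50 after the start of the gene as RefSeq gives it, at chr19:5802623-5802922 on the minus strand of GRCm38.p6, 5′ to 3′. Capitals mark a match to the shorter core TAAACA.

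Malat1 promoter: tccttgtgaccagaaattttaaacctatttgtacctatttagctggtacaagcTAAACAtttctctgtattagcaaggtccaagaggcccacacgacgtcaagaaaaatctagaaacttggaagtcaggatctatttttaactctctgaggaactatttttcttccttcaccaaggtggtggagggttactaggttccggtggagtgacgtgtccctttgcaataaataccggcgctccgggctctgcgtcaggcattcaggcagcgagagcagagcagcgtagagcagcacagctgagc

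The full core GTAAACA had 0 matches in this window on either strand. Of 32851 promoter windows of the same length in the RefSeq table, 3.65% held it. The shorter TAAACA had 1 match, which starts 197 bases before the gene's start, and 13.4% of all windows held such a match. The still shorter AAACA had 1 match too, inside the same letters, against 50.5% of windows. Of the 17 genes listed nearest to Malat1 and Neat1, 13 had a promoter window, and 0 of these held GTAAACA or TAAACA while 5 held AAACA. These matches are letters in a reference sequence and were not compared with the peaks. Neat1 is named without a promoter.

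The 23 summits did not fill the region evenly. Splitting at gaps of over 10 kb, a limit set with the positions in view, gave 4 stretches of 2, 11, 9 and 1 peaks. The stretches of 11 and 9 peaks spanned 17.3 and 10.8 kb and were 21.5 kb apart. Each peak of the list covers 460 bp around a central summit, and all positions below are summits, counted from 1 on mm9.

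**Figure D1:**
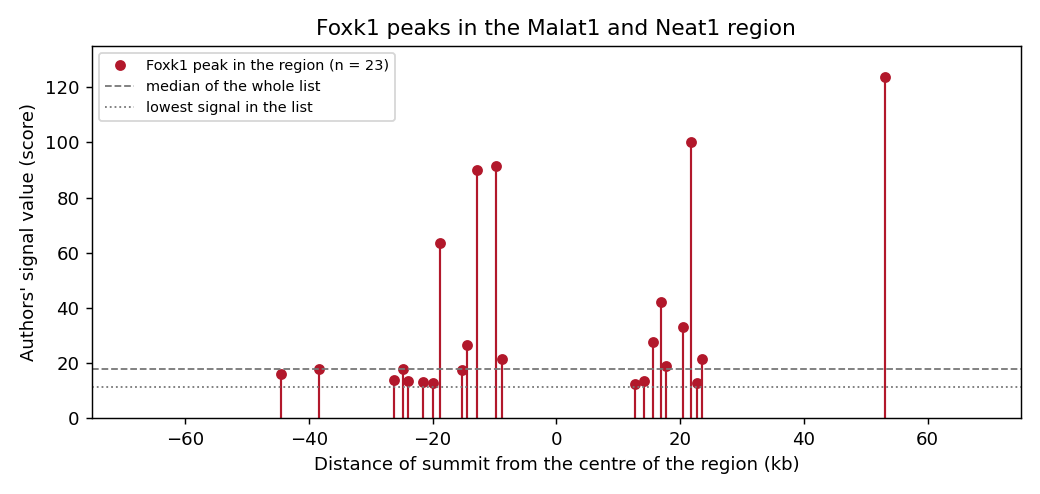
Signal value of each of the 23 Foxk1 peaks (vertical axis, the authors' score) against the distance of its summit from the centre of the region in kb (horizontal axis). Each point is 1 peak, the dashed line is the median of the whole list (17.8) and the dotted line its lowest value (11.3); stretches of 11 and 9 peaks flank an empty 21.5 kb, and the highest peak, with 123.7, stands apart at the right.

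At the low end were 2 peaks with signal values close to the 17.8 that is the median of the list. Their summits at 5780471 and 5786615 had signal values of 16.0 and 17.8 and ranks of 16948 and 14517. They were 6144 bp apart, and the next summit followed after 12.2 kb. The list ends at a signal value of 11.3, and rank 1 is its highest peak, with tied peaks sharing a rank.

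The stretch of 11 peaks began with weak ones. Summits at 5798845, 5800226 and 5800990 had signal values of 13.7, 17.7 and 13.5, at ranks 21109, 14601 and 21655. The next peaks, at 5803467 and 5805146, had signal values of 13.3 and 12.9 and ranks of 22087 and 23099. All 5 of these were below the median of the list.

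Higher peaks stood in the rest of that stretch. The summit at 5806225 had a signal value of 63.5 and rank 1341, and lay 1079 bp from the weak summit at 5805146. It was followed by 5809816 and 5810508, with signal values of 17.6 and 26.5 at ranks 14686 and 7739, which were 692 bp apart, the shortest distance in the region. The summit at 5812213 had 89.9 at rank 587, and that at 5815267 had 91.6 at rank 556. These last 2 were the highest of the stretch and 3054 bp apart. The stretch ended at 5816158, with a signal value of 21.5 and rank 10852.

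The stretch of 9 peaks had 1 high summit among lower ones. It opened with 5837691, 5839128 and 5840540, whose signal values of 12.5, 13.6 and 27.7 gave ranks 24232, 21383 and 7180. The first of them was the lowest of all 23 peaks. Then came 5841833 with a signal value of 42.2 at rank 3254 and 5842786 with 19.05 at rank 13079.

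Beyond a gap of 2747 bp lay the strongest part of this stretch. The summit at 5845533 had a signal value of 33.2 at rank 5214, and 1163 bp further the summit at 5846696 had 99.99 at rank 427. Signal dropped on the far side of this summit within 1042 bp, to 12.8 at 5847738, rank 23584. The stretch ended at 5848519, with a signal value of 21.5 at rank 10791. The median signal value was 21.5 in the stretch of 9 peaks and 17.7 in the stretch of 11.

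The highest peak of the region belonged to neither stretch. Its summit at 5878052 had a signal value of 123.7 and rank 235, within the top 0.812% of the list. It was 29.5 kb from the nearest member and 29.6 kb from the next peak outside the bounds. Thus the region's peak of highest signal was also the most isolated of the 23.

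The bounds fall in empty stretches on both sides. The nearest summit outside on the low side was 5743608, with a signal value of 48.8, at 36.9 kb from the first member, which had 16.0. On the high side the nearest outside was 5907637, with 13.2, against 123.7 for the last member.

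Set in the list by rank, the members came from its whole range. When the list was cut into 4 equal parts by signal, the part with the highest values held 8 of the 23 (34.8%), the second 4, the third 7 and the lowest 4. The median signal value was 19.05 in the region and 17.8 in the whole list. Signal values of at least 50 were given to 5 of 23 (21.7%), against 7.97% of all peaks. The lowest q-value in the list, 0.00014, was given to 6 of 23 (26.1%), against 12.3% of all peaks. Only the summit at 5878052 had 100 or more, which is 1 of 23, against 1.47% of all peaks. The members are few and were chosen for lying together, so nothing is read from these differences.

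The neighbourhood gives the closest comparison. From 5 to 6 Mb of chromosome 19 there were 69 peaks, of which 33.3% lay in the region and its 15% of the length. Density was 15.3 peaks per 100 kb in the region and 5.41 in the other 850 kb, which held 46 peaks, a ratio of 2.83. Peaks covered 7.05% of the region's bases and 2.45% of the other bases. Bins of 50 kb show where the difference lay. The middle bin of the region held 19 peaks and its outer bins 3 and 1, against at most 7 in any of the 17 bins outside.

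**Figure D2:**
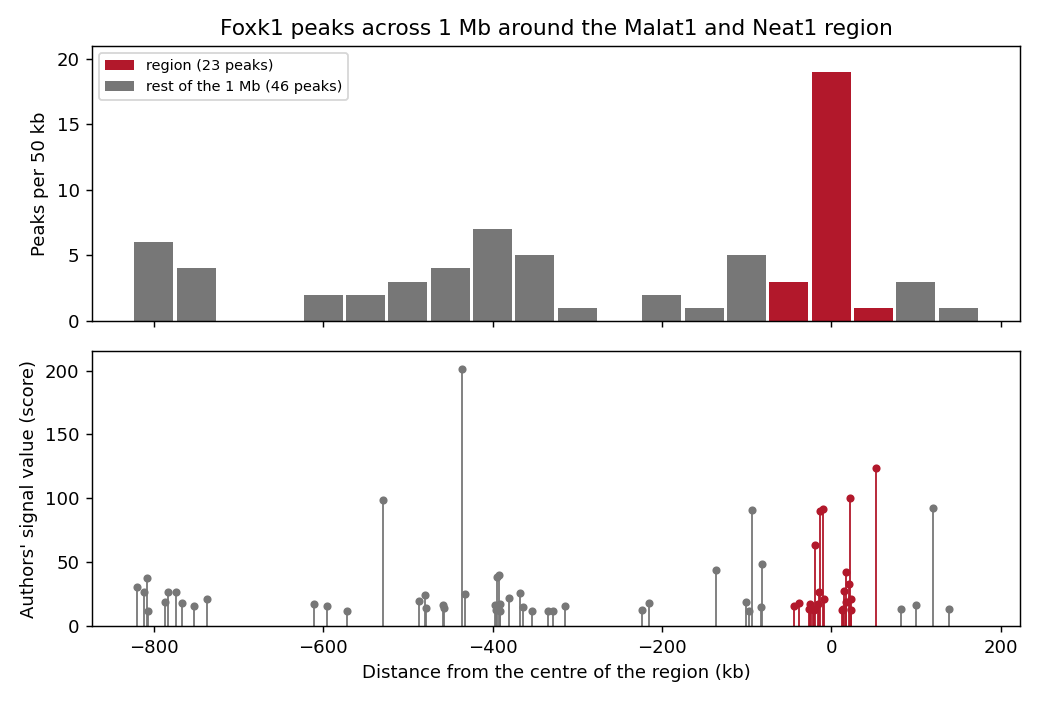
Foxk1 peaks over 1 Mb of chromosome 19 against distance from the centre of the region in kb, with the region in red and the rest in grey. The upper panel counts peaks in bins of 50 kb, with 19 in the central bin and at most 7 in any grey bin; the lower panel gives each peak's signal value (the authors' score), where the highest, 201, is grey.

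The signal values of both sets overlapped widely. The median signal value was 19.05 in the region (25th and 75th percentiles 13.7 and 37.7) and 17.9 in the rest (14.1 and 26.8), a difference of 1.15. Both sets ran from near the list's lower limit upward: the region from 12.5 to 123.7, the rest from 11.6 to 201. Those at 50 or above numbered 5 in the region and 4 in the rest, or 3.33 and 0.471 per 100 kb, a ratio of 7.08. Below 50 the ratio of densities was 2.43. The difference in median depended on which peaks were counted. It was 10.8 among peaks at or above the list's median. It was 44.1 once summits less than 2000 bp apart were merged and the highest of each group kept. Such a close summit was present for 87.0% of the members and 30.4% of the rest, so merging acts on the sets unequally. The 44.1 is therefore tied to the clustering that chose the region.

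The highest peak of the 1 Mb was not in the region. In the rest the 3 highest summits were 5388729, with a signal value of 201 at rank 58, 5295489, with 99.0 at rank 436, and 5945321, with 92.3 at rank 542. Of the 5 peaks of the region at 50 or above, 4 had another summit within 2 kb, and only that at 5878052 did not. In the rest this held for 0 of 4 such peaks, whose nearest neighbours were 3.75 kb or more away. The share among all peaks of the list at 50 or above was not computed. Of the 23 members of any signal, 20 had such a close neighbour, so nothing is read from this contrast.

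Summits in the region lay close together. The median distance between neighbouring summits was 1.42 kb in the region and 10.4 kb in the rest of the 1 Mb, and it was 24.8 kb over the list. Another summit lay less than 2000 bp away for 20 of the 23 members (87.0%) and for 14 of the 46 other peaks (30.4%), against 25.8% of all peaks. The 3 members without one were the 2 at the low end and the highest peak. Peaks of the region did not overlap each other, while 3 neighbouring pairs in the rest of the 1 Mb did. In the whole list of 28933 peaks 760 such pairs overlapped, so their absence here is not read as a trait of the region. Spacing is tied to density, which chose the region, so this too is a description.

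**Figure D3:**
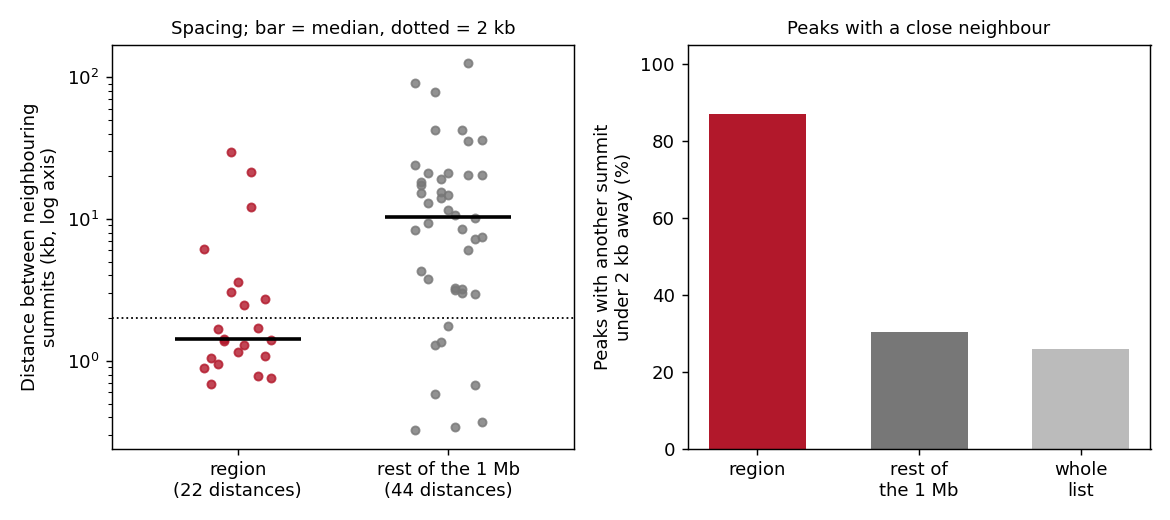
Left, distance between neighbouring summits in kb on a log axis, for the region (22 distances) and the rest of the 1 Mb (44 distances); points are distances, black bars medians (1.42 and 10.4 kb), and the dotted line is 2 kb. Right, the percentage of peaks with another summit under 2 kb away, which was 87.0% in the region, 30.4% in the rest of the 1 Mb and 25.8% in the whole list.

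Neighbours were often unequal in signal. Among the 14 pairs of neighbouring members under 2000 bp apart, the higher signal value was 1.03 to 7.83 times the lower, with a median of 1.86, taking the score as one with a true zero. These ratios were not computed for pairs elsewhere, so they are not read as particular to the region. The most unequal pair was 5846696 and 5847738, with 99.99 and 12.8. The most equal was 5803467 and 5805146, with 13.3 and 12.9. Joining summits less than 2000 bp apart, and keeping the highest of each group, left 9 of the 23 and gave a density ratio of 1.34 over the rest of the 1 Mb treated alike, against 2.83 before.

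Runs of close summits were then counted over the whole list. With no gap of over 4 kb allowed, a limit chosen with these positions in view, the list formed 23008 runs, of which 80.8% were single peaks and 92 held 5 or more. The stretch of 11 peaks was the fullest run in the list. The stretch of 9 peaks shared the next place with a run of 9 on chromosome 5, between summits at 143813675 and 143822460. That run spanned 8.79 kb, against 10.8 kb here, and its highest signal value was 109 against 99.99 here. The order depended on the limit. At 3 kb the stretch of 9 stayed whole and was as full as any run in the list, while the stretch of 11 broke up and its fullest run held 6 peaks, tied at rank 10. At 5 kb both stretches kept their places. At 2 kb the region's fullest run held 5 peaks, while the list's fullest held 8. At 10 kb the stretch of 11 tied for the fifth place, and the list's fullest run held 16.

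The region was also set beside the fullest windows elsewhere. On a grid of 150 kb windows that includes the region, 9101 windows held a peak, with a median of 2 peaks. The grid was set to match the region's bounds, which keeps its peaks together, while clusters elsewhere can be cut by window edges. That favours the region's place. A window on chromosome 11 from 86300001 to 86450000 held 24, and one on chromosome 19 from 9050001 to 9200000 held 23 like the region. Signal values of at least 50 numbered 5 in the region, 3 in the chromosome 11 window and 2 in the other chromosome 19 window. The next fullest window, on chromosome 5 from 107450001 to 107600000, held 20 peaks and 7 such values, which no window exceeded, and 5 windows including the region held 5 or more.

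Among windows of 100 kb, the one from 5800001 to 5900000 on chromosome 19 held 20 of the members and was the fullest. Next was a window on chromosome 11 (86400001 to 86500000), where 18 summits lay, and then one on chromosome 17 (80100001 to 80200000), where 17 did. The median signal values of these windows were 21.5, 23.2 and 19.9, and their highest were 123.7, 174 and 86.0. Median spacing was 1.41 kb in the Malat1 and Neat1 window, 3.15 kb in that on chromosome 11 and 3.57 kb in that on chromosome 17. Another summit lay within 2000 bp for 19 of 20 peaks in the first, 8 of 18 in the second and 8 of 17 in the third.

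**Figure D4:**
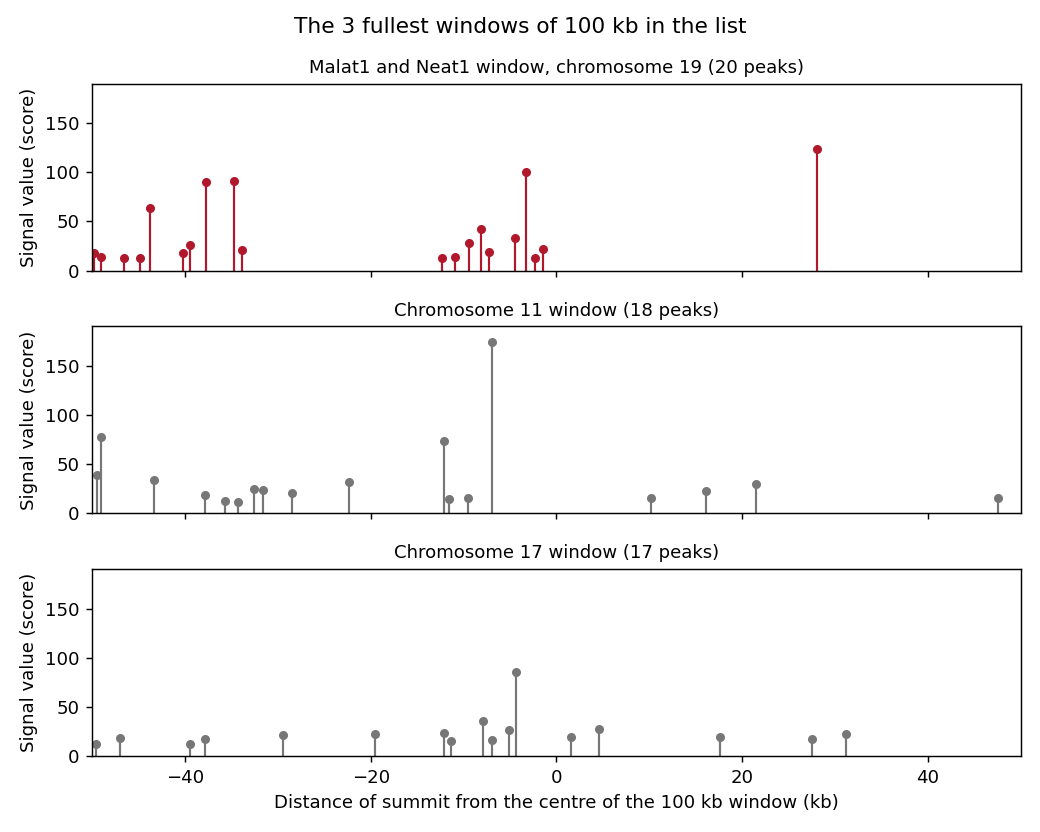
Signal value (the authors' score) of each peak against the distance of its summit from the centre of its 100 kb window in kb, for the 3 fullest such windows, on shared axes. The chromosome 19 window with Malat1 and Neat1 (red, 20 peaks) has 19 of them in 2 stretches and its highest peak alone; in the windows on chromosomes 11 and 17 (grey, 18 and 17 peaks) the median spacing is 3.15 and 3.57 kb, against 1.41 kb.

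Apart from this window, 123 windows of 100 kb held at least 10 peaks. The share of peaks with another summit within 2000 bp ranged from 0 to 92.3% in these, with a median of 50%. None of them reached the 95% of the Malat1 and Neat1 window. That window's edge leaves out the members at 5780471 and 5786615, which had no such neighbour. Over all 23 members the share was 87.0%, below the 92.3%. The median spacing was taken within each of the 123 windows, and the median of these values was 4.07 kb. By that measure 5 of the 123 windows were spaced as closely as the Malat1 and Neat1 window or closer. The 123 windows held a median of 1 signal value of at least 50, and 1 of them held 5 or more, as the Malat1 and Neat1 window did. Closeness is tied to the number of peaks in a window, and the Malat1 and Neat1 window, with 20, was the fullest. The comparison is therefore a description and not a trait of the locus.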

How the data were processed

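Libraries were grouped by their antibody label, and input by title. The submitters' processing notes name Bowtie and mm9, with the aligner's version not given in the sources used here. Peak caller, settings and pooling of libraries are likewise not given. The authors deposited 1 narrowPeak list of Foxk1 against input, with a signal value per peak, a score whose scale is not stated, and a linear q-value from 0.00014 to 0.00995. Peaks were taken into the region by start plus summit offset. Starts and summits were then written 1-based. Ranks are by signal value. The rest of the 1 Mb was 850 kb, and its spacing was measured on each side of the region. The region and every limit were chosen with earlier results of these data known. All peaks of the region were named. In the rest of the 1 Mb the 3 of highest signal were named, and elsewhere the 2 fullest 100 kb windows. Other windows and the run on chromosome 5 were named after their values were seen. Gene names and promoters came from RefSeq tables for GRCm38.p6. Motifs were searched on both strands. No genome of mm9 was used. Functions were tested on a simulated list. Alternatives were other bounds, thresholds, merging and comparison sets. Computation used Python 3.11.15 with numpy 2.4.6, pandas 2.3.3, scipy 1.17.1 and matplotlib 3.10.9.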

Additional observations from a re-analysis of the deposited data

How the results depend on the processing

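The number of peaks, 23, was 20 with the region from 5800000 to 5900000 and 31 from 5700000 to 5950000, and moved further with stricter lists: 12 at or above the median signal value of the list, 15 at a q-value of at most 0.001 and 9 with summits less than 2000 bp apart merged. With that merge the density ratio was 1.34, the median signal value exceeded that of the rest by 44.1, the median spacing was 6.07 kb and 55.6% of peaks had a signal value of at least 50. Merging keeps the highest peak of a group, so it raises signal by construction, and more so where many summits lie close together, as in the region. Against the rest of chromosome 19 the density ratio was 7.11, and against all other chromosomes and the rest of chromosome 19 it was 13.98, instead of 2.83. Matches in the Malat1 promoter numbered 0 for GTAAACA and 1 each for TAAACA and AAACA. The other 31 of the 42 values recomputed stayed within 1.5 times for counts of peaks, or within the 95% binomial interval of the reported value. That interval takes peaks as independent, though 20 of 23 had another summit less than 2000 bp away. It is therefore no replicate error, and it is wide. Among peaks at or above the list's median, 41.7% had at least 50, against 21.7% reported, and this counted as within it. So did a difference in median signal of 10.8, against 1.15. The density ratio was above 1 in every alternative run, but the region was picked for its many peaks, so this lends it no support. Unless the stretch of 9 peaks was left out, the difference in median signal was above 0. It ranged from 0.52 without the highest peak to 10.8 at or above the list's median, and 44.1 with the merge. Without the stretch of 9 the region's median signal value was 17.76, below the 17.90 of the rest. Without the stretch of 11 it was 20.3. Both the size and the sign of the difference thus depend on the setting. No paired analysis was possible because the peaks have values for 1 comparison only and none for single libraries. Nor could any library be left out. With the depth unknown, an interval without a peak had no peak detected at this threshold.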
